A study of Mus musculus with 8 samples.

Results

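Shared intergenic SMAD4 peaks are stretches of DNA that were called as SMAD4 peaks both in unstimulated endothelial cells and after BMP9/10, and that lie between protein-coding genes. They were chosen by measured values. To be a member, a peak of the BMP9/10 list on chromosomes 1 to 19, X or Y had to overlap an unstimulated peak by 1 bp or more. Its summit had to lie outside every protein-coding gene body and more than 1 kb from any end of such a gene. The rule found 548 members among 4324 nuclear peaks of the BMP9/10 list (12.7%), which held 4333 peaks in all. They made up 548 of the 1079 nuclear peaks shared by the lists (50.8%, 95% exact binomial interval 47.8 to 53.8). Of the other shared peaks, 375 had a summit more than 1 kb inside a gene and 156 lay within 1 kb of a gene end.

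SMAD4 chromatin immunoprecipitation and sequencing was done in MS1, an established mouse endothelial line of pancreatic islet origin. After 24 h without serum, the cultures were given either fresh medium alone (unstimulated) or BMP9/10 at 1 ng/mL. There were 8 samples in 4 groups of 2, an immunoprecipitate (IP) group and an input DNA group for each condition, and 1 cell line stands for endothelium throughout. The authors merged the 2 IP libraries of a condition before calling peaks, so each site has 1 value per condition and no replicate error. The lists rest on 52971023 unstimulated and 41044888 BMP9/10 IP tags. No label explains the letters KD in the titles of the BMP9/10 IP libraries, so values after BMP9/10 are those of the libraries labelled as BMP9/10 SMAD4 IP.

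As background, BMP9 and BMP10 circulate in blood and signal in endothelium through the receptor ALK1 and the co-receptor endoglin. The activated receptor phosphorylates SMAD1 and SMAD5, which join SMAD4, enter the nucleus and bind DNA at or far from their target genes. SMAD4 contacts the letters GTCT and their complement AGAC, and SMAD1 and SMAD5 also read GC-rich letters such as GGCGCC, which in elements of BMP target genes stand a fixed step away from GTCT. The Id genes, which encode inhibitors of DNA-binding helix-loop-helix proteins, and Smad6, which encodes an inhibitory SMAD, are the textbook targets of this pathway in endothelial cells.

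No genome sequence was used here, and sequence could be read only where a member lay over a RefSeq promoter window (GRCm38.p6, 250 bases before to 50 after a start site). That was so for 17 of 548 members (3.10%), each at the window of a long non-coding RNA (lncRNA). The peak covered the start site in 13 of them and only reached the upstream part of the window in 4, and in 11 (2.01%) the summit lay inside the window. Among 1390 intergenic peaks found after BMP9/10 only, 23 (1.65%) overlapped such a window and 15 (1.08%) had their summit in one. The letters CAGAC, searched on both strands, stood in 14 of the 17 windows under members (82.4%), against 16 of 25 windows under peaks found after BMP9/10 only (64.0%), 51.7% of 11588 lncRNA windows and 49.6% of all 32851 windows of that length. In the part of the window under the peak they stood in 11 of the 17 (64.7%). The AP-1 letters TGANTCA stood in 5 of 17 (29.4%), 7 of 25 (28%), 9.31% and 7.81% of the same sets. GGCGCC stood in 3 of 17 (17.6%), 4.0%, 5.49% and 11.9%, but 2 of the 3 windows share it within a near-identical stretch, and with that pair counted once it stood in 2 of 16 (12.5%). The E-box letters CANNTG stood in 12 of 17 (70.6%), 76.0%, 78.4% and 72.3%. The palindrome GTCTAGAC was in none of the 17 windows and in 0.213% of all windows. A match is a run of letters and no measured contact, GTCT may be part of a CAGAC match read on the other strand, and windows that overlap a peak were compared with windows chosen regardless of any peak.

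Some of the 11 members with a summit in these windows are shown, because their letters can be read. No rule for the choice was planned, and those shown do not stand for the rest. Of those not printed, Gm13816 held 0 CAGAC matches under the peak. Gm35837, Gm2885, Morrbid and 1700054K19Rik held at least 1 each. The parts printed lie under both the peak and the window and run 5′ to 3′ on the strand of the RNA. Capitals mark CAGAC, its complement GTCTG, and GGCGCC. The first sequence lies 31.0 kb from Usp12, a ubiquitin protease gene, at chr5:146703705-146703886 (plus strand), with the summit 39 bases before the start of the RNA. It was the only 1 of the 17 windows to hold GGCGCC and GTCT with 5 bases between them, a composite found in 0.0731% of all windows.
4930573C15Rik: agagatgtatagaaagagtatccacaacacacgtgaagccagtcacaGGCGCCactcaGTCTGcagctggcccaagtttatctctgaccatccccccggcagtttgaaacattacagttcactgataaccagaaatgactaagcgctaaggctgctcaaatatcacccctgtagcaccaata
The next, with the summit 80 bases before the start, lies 72.8 kb from Pfkfb3, a regulator of glycolysis, at chr2:11398458-11398750 (minus strand) and held 4 CAGAC matches under the peak, the most of any.
8030442B05Rik: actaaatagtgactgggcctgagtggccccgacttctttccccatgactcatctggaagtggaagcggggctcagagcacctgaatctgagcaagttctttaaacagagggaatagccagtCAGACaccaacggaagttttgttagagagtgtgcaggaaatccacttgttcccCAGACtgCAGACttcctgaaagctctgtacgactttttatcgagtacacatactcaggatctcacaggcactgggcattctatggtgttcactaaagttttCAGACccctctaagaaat
Another lies 26.1 kb from Spry1, an inhibitor of receptor tyrosine kinase signalling, at chr3:37613683-37613962 (plus strand), with the summit 17 bases before the start.
4930594O21Rik: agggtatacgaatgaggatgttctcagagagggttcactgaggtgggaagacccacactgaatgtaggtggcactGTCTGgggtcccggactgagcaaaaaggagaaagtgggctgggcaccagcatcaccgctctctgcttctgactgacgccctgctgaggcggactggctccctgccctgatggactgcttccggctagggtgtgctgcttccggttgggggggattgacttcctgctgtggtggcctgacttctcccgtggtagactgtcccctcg
The fourth lies 35.2 kb from Nrarp, a feedback inhibitor of Notch signalling, at chr2:25145438-25145737 (minus strand), with the summit 46 bases before the start.
Gm13387: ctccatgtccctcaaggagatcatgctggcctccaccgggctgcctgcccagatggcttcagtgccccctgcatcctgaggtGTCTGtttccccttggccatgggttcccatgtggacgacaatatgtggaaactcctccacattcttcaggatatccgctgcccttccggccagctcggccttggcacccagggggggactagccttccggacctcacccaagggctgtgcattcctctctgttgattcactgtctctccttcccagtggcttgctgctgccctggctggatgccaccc

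Occupancy was read as pileup, the tags, set to a length of 100 bp, that cover the summit, and as pileup per 1000000 IP tags of the list. At 4930573C15Rik the pileup was 42 tags unstimulated and 52 after BMP9/10, or 0.793 and 1.27 per 1000000, a ratio of 1.60 (95% counting interval 1.04 to 2.46). For 8030442B05Rik the pileups were 38 and 46 tags and the ratio was 1.56 (0.994 to 2.47). The start of 4930594O21Rik had 36 and 49 tags and a ratio of 1.76 (1.12 to 2.78). Gm13387 had 52 and 57 tags and 1.41 (0.954 to 2.1). Both intervals with a lower bound under 1 include no difference, and all intervals here cover counting error within the merged libraries only. Of the members with a summit in their window that are not printed, Gm13816 had 35 and 27 tags and a ratio of 0.996 (0.58 to 1.69). Gm35837 had 38 and 35 tags and 1.19 (0.729 to 1.93). Ratios at Morrbid, 1700054K19Rik and Gm2885 were 1.63, 1.67 and 1.77.

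A pair of members shares a stretch of sequence. AI506816 and 2700038G22Rik start 138 kb apart on chromosome 5 and their windows share an identical run of 129 bases. Tags were longer than that run, at 146 bases in the unstimulated list and 140 in the other. Whether tags were split between the sites was not tested, so both values remain uncertain. They are shown to make the shared stretch visible, at chr5:23712618-23712832 (minus strand) and chr5:23850347-23850646 (plus strand).
AI506816: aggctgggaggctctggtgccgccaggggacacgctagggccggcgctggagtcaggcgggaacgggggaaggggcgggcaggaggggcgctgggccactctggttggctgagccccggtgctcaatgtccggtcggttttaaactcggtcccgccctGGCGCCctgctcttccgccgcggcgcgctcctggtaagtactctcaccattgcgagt
2700038G22Rik: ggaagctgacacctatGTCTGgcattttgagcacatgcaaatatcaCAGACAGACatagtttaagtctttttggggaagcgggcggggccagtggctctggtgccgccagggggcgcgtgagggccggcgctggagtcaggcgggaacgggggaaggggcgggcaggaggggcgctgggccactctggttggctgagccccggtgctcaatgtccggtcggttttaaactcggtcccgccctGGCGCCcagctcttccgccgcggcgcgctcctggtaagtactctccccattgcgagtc
The pileups were 30 and 41 tags at AI506816 (ratio 1.76, 1.07 to 2.93) and 39 and 52 at 2700038G22Rik (1.72, 1.11 to 2.68), unstimulated value first. The sites had similar ratios, with intervals that overlap.

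Over all members, SMAD4 pileup per 1000000 was higher after BMP9/10 at nearly every site. The median was 0.717 per 1000000 unstimulated (interquartile range 0.585 to 0.887, range 0.302 to 2.25) and 1.07 after BMP9/10 (0.877 to 1.32, range 0.390 to 2.75). The ratio at each pair had a median of 1.47 (interquartile range 1.31 to 1.67) and ran from 0.807 to 2.69. It exceeded 1 at 539 members (98.4%, interval 96.9 to 99.2), against 98.3% of all shared nuclear peaks, and was below 1 at 9. Before scaling to depth the contrast was smaller: 413 members had more tags after BMP9/10 (75.4%), 108 had fewer and 27 the same number, with medians of 44 and 38 tags. Equal tag numbers give a ratio of 1.29, since the unstimulated list was sequenced more deeply.

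Shared peaks inside genes and at gene ends had ratios close to these. A ratio of 1.5 or more was found at 245 members (44.7%, 40.5 to 49.0), against 45.5% of all 1079 shared nuclear peaks. The counting interval lay above 1 at 203 members (37.0%, 33 to 41.2), against 36.6% of all shared nuclear peaks, and it lay below 1 at 0 members. Both shares are near the background, and nothing about the members is read from them. Shared peaks inside genes had a ratio of 1.5 or more at 43.7% (38.6 to 48.9) and those at gene ends at 52.6% (44.4 to 60.6), with median ratios of 1.46 and 1.52. Since a member had to be called in both lists, and its pileup entered both calls, these values describe the members and test nothing.

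**Figure D1:**
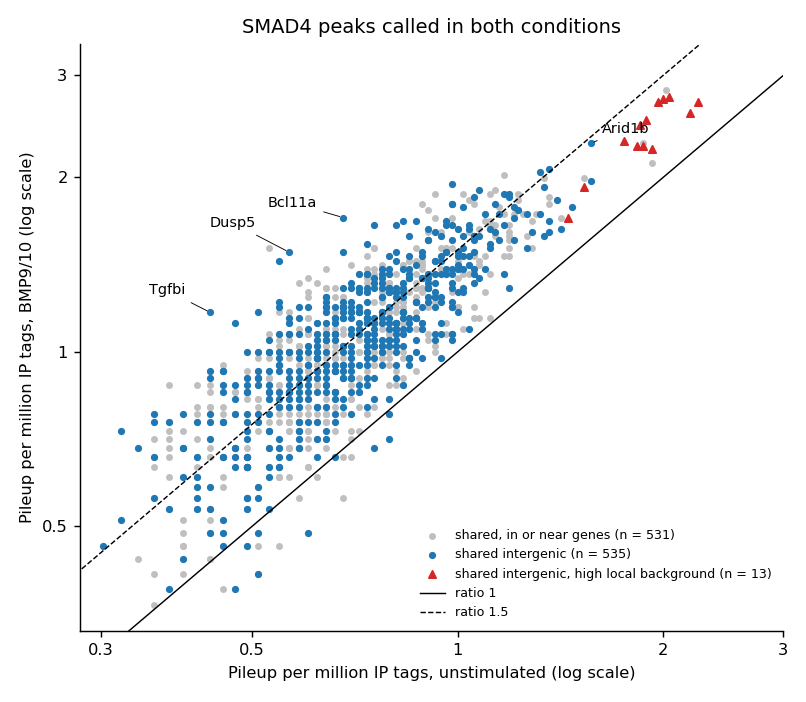
SMAD4 pileup per 1000000 IP tags at shared peaks, unstimulated on the x axis and BMP9/10 on the y axis, both on log scales, 1 point per peak. Blue points are shared intergenic peaks (n = 535), red triangles those of high local background (n = 13), grey points the other shared peaks (n = 531), and the lines mark ratios of 1 and 1.5. Nearly all blue points lie above the line of ratio 1 and spread around the line of ratio 1.5, as the grey points do.

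Fold enrichment, the authors' ratio of IP pileup to the local background taken from the input, moved the same way. Members had a median of 4.0 unstimulated (interquartile range 3.30 to 5.0) and 5.82 after BMP9/10 (4.40 to 7.22). The local background per 1000000 had a median ratio of 0.997 between the lists and the ratio of the fold enrichments a median of 1.40. The order of the members was kept better by pileup than by fold enrichment: across the 548 members, which share their libraries, Spearman's rho between the lists was 0.83 for pileup per 1000000 and 0.39 for fold enrichment. Of the 50 members of highest fold enrichment in either list, 23 (46.0% of each) were in both.

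Members were also wider in the BMP9/10 list. The median width was 193 bp unstimulated (141 to 260) and 324 bp after BMP9/10 (247 to 417). Of the members, 504 (92.0%, 89.4 to 94.1) were wider after BMP9/10, against 91.9% of all shared nuclear peaks. Other shared peaks did the same, with 185 and 304 bp inside genes, and 186 and 342 bp at gene ends. Intergenic peaks found after BMP9/10 only had a median width of 179 bp, close to the unstimulated counterparts of the members. Width depends on how much of a site passes the caller's threshold, and the lists were called with different band widths (300 and 200) and depths, whose part in the widths was not tested. Summits in the lists lay a median of 30.5 bp apart, and 369 of 548 pairs (67.3%) had them within 50 bp.

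**Figure D2:**
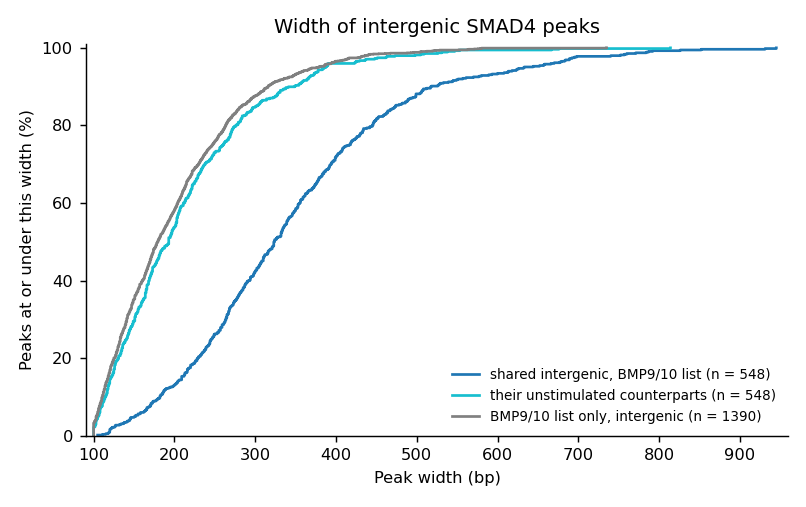
Cumulative share of peaks (y axis, %) at or under each width (x axis, bp) for the 548 members after BMP9/10, their 548 unstimulated counterparts, and the 1390 intergenic peaks of the BMP9/10 list only. The curve of the members after BMP9/10 lies to the right, with a median of 324 bp against 193 and 179 bp for the others.

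Among members within 100 kb of their nearest gene, those whose nearest gene was a BMP target gene lay at most 56.2 kb from it. Of the 20 genes of that list, 8 (40%) were the nearest protein-coding gene, within 100 kb, to at least 1 member, against 361 of all 21887 protein-coding genes (1.65%). These 8 were Id1, Id2, Id3, Id4, Smad6, Hes1, Atoh8 and Msx1, with 18 members. The ratio was 1.5 or more at 8 of the 18 and the counting interval lay above 1 at 7, near the 45.5% and 36.6% of all shared peaks, with a median ratio of 1.46 against 1.47 over all members. The list was drawn up with results of these data known and the length of the gaps around its genes was not compared with that of other genes.

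Id1 had 3 members, all within 4.25 kb. The one 1.05 kb from the gene (chromosome 2, 152735040 to 152735424) had 59 tags unstimulated and 63 after BMP9/10, or 1.11 and 1.53 per 1000000. On the other side, 2.07 kb away (152739363 to 152739678), the pileups were 40 and 68 tags, or 0.755 and 1.66 per 1000000. The farthest, at 4.25 kb, had 37 and 42 tags. The nearest member was thus the taller one unstimulated and the member 2.07 kb away the taller one after BMP9/10, with ratios of 1.38 (0.951 to 2.0) and 2.19 (1.46 to 3.33), whose intervals overlap.

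Id3 had 3 members as well. The member at 2.64 kb (chromosome 4, 136147946 to 136148190) had 32 and 49 tags and a ratio of 1.98 (1.24 to 3.19). Another just beyond it, at 3.05 kb, had 26 tags in both lists and a ratio of 1.29 (0.720 to 2.31). The third lay 3.29 kb from the opposite end of the gene, inside the lncRNA gene Gm42329, with 30 and 41 tags (1.76, 1.07 to 2.93). Neighbouring members of this gene therefore spanned ratios from 1.29 to 1.98, and their intervals overlapped.

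At Id2 the near member, 2.83 kb away (chromosome 12, 25098585 to 25099092), had 42 and 49 tags, and a second one 23.5 kb away had 32 and 31. Id4 had a single member, 33.2 kb away inside the lncRNA gene A330033J07Rik (chromosome 13, 48227714 to 48228124), with 49 and 66 tags and a ratio of 1.74 (1.18 to 2.57). That site had the highest fold enrichment of all members after BMP9/10, 21.0, and the second highest unstimulated, 12.5. Among the Id genes, therefore, the intergenic site of highest fold enrichment was also the most distant from its gene. Its local background after BMP9/10, 0.0535 per 1000000, matched the lowest among all members, which raises a fold enrichment. By pileup after BMP9/10 the Id1 member at 2.07 kb was taller, with 68 tags against 66. That Id1 member had a local background of 0.143 per 1000000 and a fold enrichment of 10. The ranking thus holds for fold enrichment and not for pileup.

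Smad6 was nearest to 3 members and flanked 2 more. On one side of the gene a member 25.3 kb away (chromosome 9, 63927713 to 63928131) had 41 and 46 tags. On the other side a pair 28.1 and 28.6 kb away, inside the lncRNA gene 1110036E04Rik, had 39 and 56 tags (ratio 1.85, 1.21 to 2.86) and 46 and 47 tags (1.32, 0.859 to 2.02). A further pair, 67.2 and 72.3 kb from Smad6 and nearer to Lctl, had 40 and 46 and then 33 and 40 tags. All 5 had more tags after BMP9/10, and the interval lay above 1 at 1 of them.

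Hes1, a transcriptional repressor downstream of Notch and BMP signals, was the only gene nearest to 4 members within 100 kb. The farthest, at 56.2 kb over the start of the lncRNA gene 4632428C04Rik (chromosome 16, 30008615 to 30009272), had 29 and 44 tags and a ratio of 1.96 (1.2 to 3.25). Those at 12, 5.86 and 1.06 kb had 26 and 35, 32 and 34, and 31 and 31 tags. Their ratios were 1.74 (1.02 to 3.01), 1.37 (0.821 to 2.30) and 1.29 (0.759 to 2.20). At this gene the ratios were larger at the distant members than at the near ones, though all 4 intervals overlap.

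Atoh8 and Msx1, which encode a helix-loop-helix and a homeobox factor, had 1 member each. The Atoh8 member, 8.71 kb away, had 36 and 38 tags (1.36, 0.841 to 2.21). The Msx1 member, 8.67 kb away (chromosome 5, 37811778 to 37811992), had 27 and 20 tags and a ratio of 0.956 (0.508 to 1.77). That was the only ratio below 1 among the 18 members nearest to a BMP target gene within 100 kb.

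**Figure D3:**
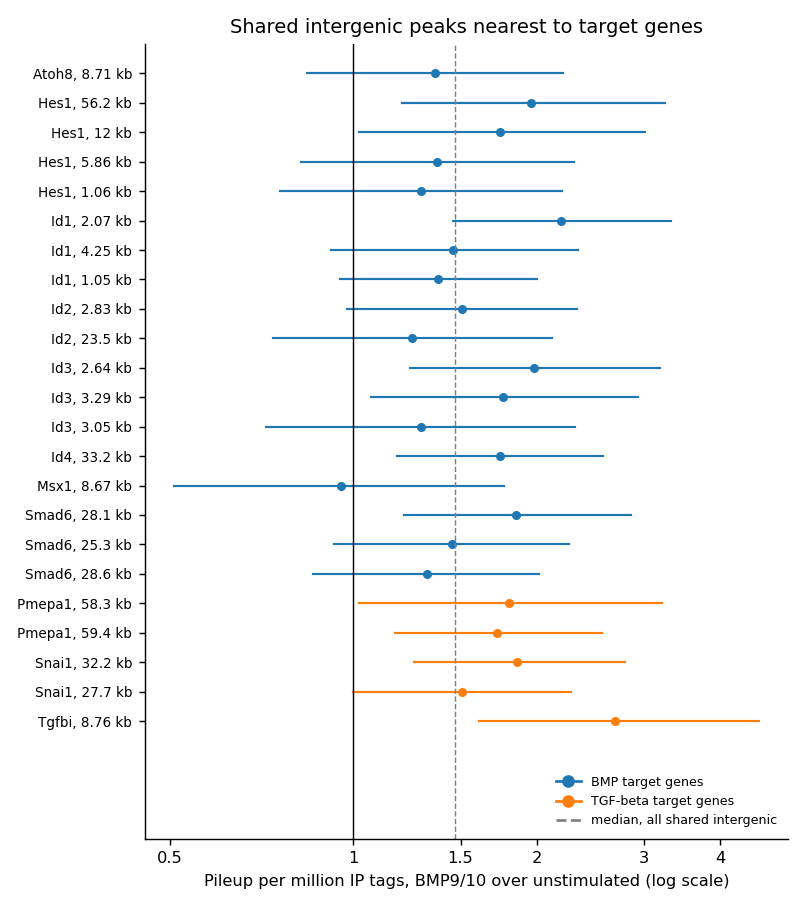
Ratio of pileup per 1000000 IP tags, BMP9/10 over unstimulated (x axis, log scale), at the 18 members nearest to BMP target genes (blue) and the 5 nearest to the TGF-beta target genes described (orange), labelled with the gene and the distance to it. Bars are 95% counting intervals, the solid line is a ratio of 1 and the dashed line the median of all members, 1.47. Most points lie close to the dashed line, from 0.956 at Msx1 to 2.69 at Tgfbi.

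Of the TGF-beta target genes, Snai1, Pmepa1 and Tgfbi are described, with 5 members nearest to them. This list was shortened after its values were seen, as set out in the processing, so no count, share or median over it is given, and the ratios of these 5 members do not stand for the whole group. Tgfbi, which encodes a matrix protein, had the largest ratio of all members with an unstimulated pileup of 20 or more. That member, 8.76 kb away (chromosome 13, 56647948 to 56648377), had 23 tags unstimulated and 48 after BMP9/10, a ratio of 2.69 (1.61 to 4.64), and its width was 211 and 430 bp.

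Pmepa1, an inhibitor of TGF-beta signalling, had a pair of members 58.3 and 59.4 kb away, with 23 and 32 and then 48 and 64 tags (ratios 1.80, 1.02 to 3.21, and 1.72, 1.17 to 2.56). Snai1, a repressor of epithelial genes, had a pair 27.7 and 32.2 kb away inside the lncRNA gene Gm11476, with 47 and 55 and then 45 and 65 tags (1.51, 1.0 to 2.28, and 1.86, 1.26 to 2.79). All 4 of these members had more tags after BMP9/10, and the pairs each had overlapping intervals. Junb, Ski and Skil flanked 1 member each, at 5.99, 13.0 and 37.6 kb, to which another gene was nearer, with ratios of 1.38, 1.25 and 1.18.

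Of the receptors and SMADs themselves, 1 of 17 (5.88%, against 1.65% of all protein-coding genes) was nearest to a member. That was Smad5, at 23.6 kb (chromosome 13, 56679197 to 56679457), with 34 tags unstimulated and 30 after BMP9/10 and a ratio of 1.14 (0.673 to 1.92). It lies in the same gap between genes as the Tgfbi member, so neighbouring sites in 1 gap had ratios of 1.14 and 2.69, with overlapping intervals. Eng, the endoglin gene, flanked a member 8.41 kb away that was nearer to Ak1, with 44 and 51 tags (1.5, 0.980 to 2.29).

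Endothelial identity genes were nearest to 10 members, at 8 of 25 genes (32.0%, against 1.65% of all protein-coding genes). The ratio was 1.5 or more at 5 of the 10 and the interval above 1 at 5, against 45.5% and 36.6% of all shared peaks, with a median of 1.46. So few members cannot be told from those shares. Kdr, the main VEGF receptor of endothelium, had the highest pileup of them after BMP9/10, 10.0 kb away (chromosome 5, 75922584 to 75923109), with 60 and 74 tags (1.13 and 1.80 per 1000000, ratio 1.59, 1.12 to 2.28). Tal1, a transcription factor of blood and endothelium, had a member 3.70 kb away with 61 and 71 tags (1.5, 1.05 to 2.15). Both stood above the median member in both lists.

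Egfl7, a secreted factor of endothelial cells, had 3 members 2.47 to 9.03 kb away in the gap to Notch1. The nearest (chromosome 2, 26578296 to 26578793) was the tallest, with 64 and 70 tags (1.41, 0.991 to 2.01). The others, at 4.92 and 9.03 kb, had 36 and 49 tags (1.76, 1.12 to 2.78) and 48 and 53 tags (1.42, 0.946 to 2.15). Emcn, the endomucin gene, had 29 and 41 tags 18.4 kb away (1.82, 1.11 to 3.04), the largest ratio of this list. Cldn5, a tight junction gene, had 34 and 43 tags 43.5 kb away (1.63, 1.02 to 2.64).

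At Cdh5, Flt1 and Sox18 the counting intervals include 1. Cdh5, the VE-cadherin gene, had 34 and 35 tags 5.74 kb away (1.33, 0.805 to 2.20). Flt1, a VEGF receptor, had 44 and 45 tags 25.6 kb away (1.32, 0.852 to 2.05). Sox18, a transcription factor of vessel development, had 53 and 58 tags 3.97 kb away (1.41, 0.956 to 2.09), and flanked 2 further members nearer to Gm29797 and Tcea2. Equal tag numbers give a ratio of 1.29 at these depths, so these 3 genes lie near equal counts. Pecam1, an adhesion gene of endothelium, flanked a member 22.2 kb away that was nearer to Milr1, with 35 and 44 tags (1.62, 1.02 to 2.61).

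Of the VEGF pathway and tip cell genes, 4 of 17 (23.5%, against 1.65% of all protein-coding genes) were nearest to a member: Kdr and Flt1 again, Apln and Pgf. Apln, which encodes the ligand apelin, had 37 and 45 tags 18.7 kb away on chromosome X (1.57, 0.993 to 2.49), and Pgf, which encodes placental growth factor, 35 and 34 tags 8.79 kb away (1.25, 0.759 to 2.07). Notch pathway genes had 2 of 20 (10%), Hes1 and Nrarp. Flow response and PI3K genes had 3 of 20 (15%). Klf2, a factor induced by blood flow, had 36 and 47 tags 7.99 kb away (1.68, 1.07 to 2.68). Klf10 had 3 members, at 1.68, 84.0 and 90.8 kb, the nearest with 63 and 77 tags (1.58, 1.12 to 2.24), and Foxo1 had 34 and 29 tags 93.9 kb away (1.10, 0.647 to 1.86). Icam1, an adhesion gene, flanked a member 3.81 kb away that was nearer to Mrpl4, with 71 and 65 tags (1.18, 0.831 to 1.68).

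AP-1 and ETS factors and other endothelial transcription factors had 3 of 20 genes nearest to a member (15%, against 1.65% of all protein-coding genes). All 3 were AP-1 or its relatives, with intervals that include 1. Jun had 75 and 67 tags 31.9 kb away (1.15, 0.817 to 1.62), Atf3 45 and 40 tags 10.6 kb away (1.15, 0.730 to 1.80), and Fos 56 and 61 tags 8.78 kb away (1.41, 0.962 to 2.06). Jun and Atf3 thus had fewer tags after BMP9/10 before scaling. Their ratios lay below those at Id1 and Tgfbi, but the intervals overlap and the difference was not tested. Of the members nearest to BMP target genes within 100 kb, only the Msx1 one had a lower ratio, 0.956.

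Genes of other kinds were also nearest to members. The housekeeping gene Actb had a member 13.0 kb away with 36 and 53 tags (ratio 1.90, 1.22 to 2.99), and no count over the housekeeping list is given, since it too was shortened. Marker genes of other cell types had 1 of 14 for neurons (Elavl4, 7.14%) and 2 of 16 for mural cells and fibroblasts (Kcnj8 and Thy1, 12.5%). Leukocyte markers had 1 of 14 (Ptprc, 7.14%), and pancreatic islet and acinar markers 0 of 15. The neuron, mural cell and leukocyte shares also exceed the 1.65% of all protein-coding genes. The Ptprc member, 23.5 kb away, had 41 and 55 tags (1.73, 1.13 to 2.66). A peak near a gene is no measure of that gene's expression, and no expression data were analysed here.

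The 12 strongest members by fold enrichment after BMP9/10 lay 1.43 to 927 kb from their nearest gene, against a median of 31.0 kb over all members. After Id4 came a member 99.7 kb from the predicted gene Gm8882 (8 unstimulated, 20 after BMP9/10) and one 927 kb from Bcl11a, a zinc-finger repressor gene (9.65 and 17.7). The next were 14.4 kb from Slc22a5, a carnitine transporter gene (8.12 and 16.2), and 177 kb from Fn1, the fibronectin gene (10.8 and 16.2). Others among the first 12 were nearest to Gtf2ird1 (6.7 kb), Marcks (125 kb), Dusp6 (1.43 kb), Phactr1 (115 kb), Arid1b, Pmepa1 (59.4 kb) and Tmem170b (21.3 kb). Arid1b, a chromatin remodelling subunit gene 368 kb from its member (chromosome 17, 4626183 to 4626681), had the highest unstimulated fold enrichment, 16.8, with 83 and 94 tags. The smallest pileup ratios among these 12 members were 1.29 at Slc22a5, 1.36 at Phactr1 and 1.46 at Arid1b. The 8 members of highest unstimulated fold enrichment were those of Arid1b, Id4, Phactr1, Fn1 and Bcl11a, then Pgrmc2 (9.5 unstimulated, 7.33 after BMP9/10), Tmem30c (8.87 and 11.4) and Cxxc5 (8.71 and 8.29).

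After Tgfbi, the largest ratios were 2.63 (1.66 to 4.25) at a member 125 kb from Marcks, 2.62 (1.67 to 4.21) at 13.4 kb from the ERK phosphatase gene Dusp5, and 2.51 (1.66 to 3.86) at the Bcl11a member. Their pileups were 29 and 59, 30 and 61, and 36 and 70 tags. Sgk1, a kinase gene 180 kb from its member, had 25 and 46 tags (2.37, 1.43 to 4.03), and Mreg 27 and 48 (2.29, 1.40 to 3.82). Gm46617 had 29 and 50 tags (2.23, 1.38 to 3.65), and the Id1 member at 2.07 kb was the next. The smallest ratios were 0.807 (0.437 to 1.45) at 229 kb from Zfp637, with 32 and 20 tags, then 0.813 at Vwa1, 0.826 at Fem1c, 0.891 at Tmem230 and 0.903 at Plppr2. All 5 of these smallest ratios had intervals that include 1. A ratio of 2 or more was found at 25 members (4.56%), against 4.45% of all shared nuclear peaks.

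Members lay a median of 31.0 kb from the nearest protein-coding gene body (interquartile range 10.3 to 93.3 kb), in gaps between flanking genes with a median of 138 kb (n = 538). Of the 548, 81 lay 1 to 5 kb away (14.8%, 11.9 to 18), 131 lay 5 to 20 kb away (23.9%), 127 lay 20 to 50 kb away (23.2%), 84 lay 50 to 100 kb away (15.3%) and 125 lay over 100 kb away (22.8%, 19.4 to 26.6). The same bins hold 7.04%, 15.6%, 15.3%, 13.6% and 48.4% of the sequence between neighbouring genes more than 1 kb from them. Chromosome ends beyond the outermost genes were not counted in that sequence, and unsequenced bases were not removed. The 9 members at the start of chromosome 9, with no gene before them, were counted over 100 kb. Intergenic peaks found after BMP9/10 only had 14.4%, 26.6%, 20.9%, 16% and 22.1%, each within the interval of the members' share. Members were therefore more often near genes than the sequence between genes counted here, as were the peaks found after BMP9/10 only.

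**Figure D4:**
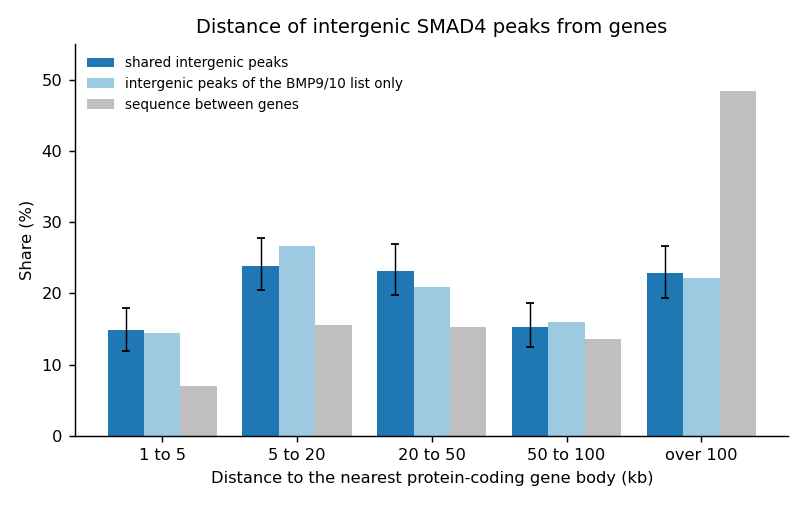
Share (y axis, %) of the 548 members, of the 1390 intergenic peaks of the BMP9/10 list only, and of the sequence between genes, in 5 bins of distance to the nearest protein-coding gene body (x axis, kb). Error bars on the members are 95% exact binomial intervals, and the members exceed the share of sequence in the bins up to 50 kb and fall below it over 100 kb (22.8% against 48.4%).

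Distance and response were nearly unrelated. The median ratio was 1.49, 1.49, 1.47, 1.43 and 1.45 in the bins from nearest to farthest, and Spearman's rho between distance and ratio was -0.05 across the 548 members, given as a description. The share with a ratio of 1.5 or more was 48.1% at 1 to 5 kb and 40% over 100 kb. A strand was known for the nearest gene of 415 members, and 224 of these (54.0%, 49.0 to 58.8) lay on the 5′ side and 191 on the 3′ side, against 54.1% on the 5′ side for peaks found after BMP9/10 only. Both flanking genes were within 100 kb at 271 members (49.5%), so that the nearest gene is not the only candidate neighbour there.

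A few members stood very far from any gene, 10 of them (1.82%) over 500 kb. The farthest was 1508 kb from Dsel (chromosome 1, 113373111 to 113373445), with 42 and 53 tags and a fold enrichment of 3.91 unstimulated and 12 after BMP9/10. Next were members 1296 kb from Gm40892 and 1086 kb from Gata3, with ratios of 1.32 and 1.89. At the other edge, the members closest to the limit of 1 kb were those of Id1 (1.05 kb), Hes1 (1.06 kb) and Trib1 (1.08 kb). Shared peaks left out by a small margin were nearest to Ap3m2 (0.802 kb), Smad6 (0.786 kb) and St3gal4 (0.719 kb), with ratios of 1.98, 1.67 and 1.02.

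Long non-coding RNA genes, which the rule did not use, covered the summit of 139 members (25.4%, 21.8 to 29.2), against 286 of 1390 intergenic peaks found after BMP9/10 only (20.6%, 18.5 to 22.8). Members inside and outside these genes had the same median pileup per 1000000 after BMP9/10, 1.07, and ratios of 1.49 and 1.45. Among those inside were members near Id4, Hes1, Snai1, Smad6 and Tal1.

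Members often had company. Another member lay within 10 kb of 109 of them (19.9%), and another peak of the BMP9/10 list within 10 kb of 224 (40.9%). With members linked over at most 25 kb, 415 stood alone, 46 groups held 2, 9 held 3, 1 held 5 and 1 held 9. The groups of 3 included those of Id1, Id3, Hes1, Egfl7, Sgk1 and the neighbours of Sox18. The group of 5 spanned 16.1 kb between Nanos3 and Zswim4 on chromosome 8, with a median ratio of 1.37. These groups are named for their size, after their values were seen, and whether neighbouring peaks are separate binding sites was not tested. In all, 361 genes were nearest to a member within 100 kb, 312 of them to 1, 37 to 2, 11 to 3 and 1 to 4.

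The group of 9 stood apart. It lay on chromosome 9 between 3003452 and 3038254, with no gene before it on the chromosome and Alkbh8 297 kb or more after it, and 8 of its 9 members had a local background of at least 4 times the median of all members. In all 13 members (2.37%, 1.27 to 4.02) did, against 0 of the 531 other shared peaks and 11 of 1390 intergenic peaks found after BMP9/10 only (0.791%). The others were a pair 1031 and 1035 kb from Lrrc4c on chromosome 2 and single members near Rab10, Nbea and Rpusd4. Their local background after BMP9/10 was 0.877 to 1.66 per 1000000, against a median of 0.171 over all members. They held 11 of the 12 highest pileups after BMP9/10 (1.71 to 2.75 per 1000000 over the 13) at low fold enrichments (1.62 to 2.47, against 2.41 to 21.0 at the other members), and their ratios ran from 1.16 to 1.38, none reaching 1.5. Without them the median ratio was 1.47, the share with a ratio of 1.5 or more 45.8% and the median distance 29.3 kb. At the 13 the local background per 1000000 had a median ratio of 1.26 between the lists, and the fold enrichment one of 1.01. At the other members these medians were 0.986 and 1.42. The part of the local background in the calls of the 13 was not tested.

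**Figure D5:**
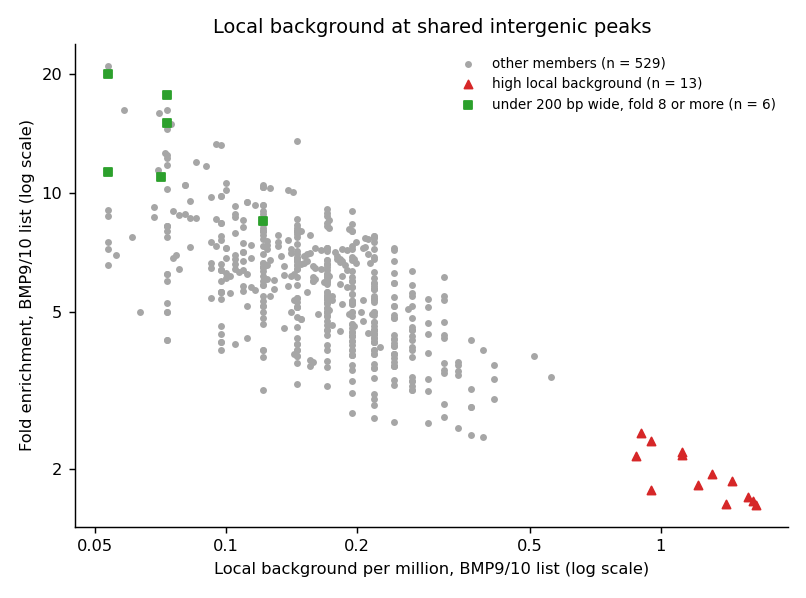
Local background per 1000000 (x axis, log scale) and fold enrichment (y axis, log scale) of the 548 members in the BMP9/10 list. Red triangles are the 13 members of high local background, which form a separate group at low fold enrichment, and green squares are the 6 members under 200 bp wide with a fold enrichment of 8 or more, which lie at low background.

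Narrow members of high enrichment formed the opposite corner. Of 71 members under 200 bp wide after BMP9/10 (13.0%), 6 had a fold enrichment of 8 or more, nearest to Gm8882, Bcl11a, Marcks, Ndst4, Tcim and Dusp5. They were 127 to 188 bp wide, their local background was 0.0535 to 0.122 per 1000000, and all 6 had a ratio of 1.5 or more (1.69 to 2.63) with an interval above 1. Over all 71 narrow members that share was 31.0%, with a median ratio of 1.37. The 6 were set apart by 2 thresholds on their own values, so their ratios are a description.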

How the data were processed

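SMAD4 peaks came from 2 lists, 1 per condition, that the authors called with MACS 2.1.0.20140616 at a q cutoff of 0.01 on merged IP and merged input libraries, per the file headers. Tags, of 146 (unstimulated) and 140 bases (BMP9/10), were set to a length of 100 bp, also per the file headers. Local background was taken over windows of 1000 and 10000 bp, per the same headers. Positions are on mm10, which the submitters' processing notes list beside HOMER. No source used here names the aligner. The input sets held 72688953 (unstimulated) and 59057559 (BMP9/10) tags. Pileup is a coverage signal that the authors deposited without scaling, and it was divided here by the IP tags of its list. Fold enrichment was deposited as a ratio, (pileup + 1) over (local background + 1), from which the local background was recovered. The deposited −log10 q was used as a minimum in an alternative and to shorten a list.

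Gene bodies came from RefSeq GRCm38.p6 (21887 protein-coding genes), with strand from its promoter table (known for 17492 symbols). Distances run from the summit to the gene body. Counterparts were the overlapping unstimulated peak of closest summit, 547 distinct peaks, and all 548 counterparts also had an intergenic summit. Peaks on mitochondrial DNA (3 and 9) were left out. Intervals are exact binomial at 95%, for a ratio on the 2 pileups, and cover counting error only. No tests between conditions were run, since the libraries were merged. Planned motif searches around summits were not run, because no genome sequence was used here. Motif letters were searched in promoter windows of 300 bases instead. The code was tested on simulated data. Python 3.11.15, pandas 2.3.3, scipy 1.17.1 and matplotlib 3.10.9 were used.

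The members and the 13 gene lists were chosen with earlier results of these data known. A result in the TGF-beta target list and one in the housekeeping list are not reported here, and both lists were shortened accordingly after the values were seen. Members were named by rule: the 12 of highest BMP9/10 and 8 of highest unstimulated fold enrichment, the 8 largest and 5 smallest ratios (unstimulated pileup of 20 or more), those nearest to or flanking a gene of the signalling and endothelial lists within 100 kb, the 5 farthest from a gene and the 3 on each side of the 1 kb limit.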

Additional observations from a re-analysis of the deposited data

How the results depend on the processing

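Of 68 values recomputed under the alternatives, 55 moved by less than their interval (or, for counts, by less than 1.5 times) and 13 moved by more. The members numbered 548, with a median ratio of 1.47, a median distance of 31.0 kb, a median width of 324 bp, 44.7% at a ratio of 1.5 or more, and 8 BMP target genes nearest to one. With a −log10 q of at least 10 in both lists there were 189 members, with a median ratio of 1.43, a width of 394 bp and 39.2% at 1.5 or more. With as many BMP9/10 peaks as the unstimulated list holds, which keeps the strongest by construction, these values were 1.54, 354 bp and 55.1%. Members that overlap by 50% of both peaks had a width of 300 bp. The authors' fold enrichments gave a median ratio of 1.40. Counting all genes, non-coding ones included, put members 10.8 kb from a gene and left 5 BMP target genes. Margins of 0 and 5 kb gave distances of 24.2 and 41.3 kb. Leaving out the 13 members of high local background was chosen after seeing the data and moved none of these values by more than their interval. No paired analysis was possible because the deposited lists merge the libraries of a condition, and for the same reason no library could be left out. The planned change of motif window was not run, and the planned count of target genes was run for the BMP list alone.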

Other observations

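The unstimulated list held 17 intergenic peaks with no counterpart after BMP9/10, beside 552 that overlapped a peak of that list. Of 1938 intergenic peaks of the BMP9/10 list, 548 were shared (28.3%, 26.3 to 30.3), and of its 2386 other nuclear peaks 531 were (22.3%, 20.6 to 24.0). The members were on every chromosome but Y, with 63 on chromosome 2, 45 on chromosome 1 and 44 on chromosome 9, 9 of which belong to the group near Alkbh8. Flanking genes whose strands were known stood back to back at 94 of 345 members (27.2%, 22.6 to 32.3), head to tail at 185 (53.6%) and end to end at 66 (19.1%), and at intergenic peaks found after BMP9/10 only the shares were 29.3%, 50.7% and 20%.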
